A study of Mus musculus with 12 samples.

Results

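The 9 genes described here encode adhesion molecules that leukocytes use to leave the blood and to hold on to other cells: the integrin subunits Itgam, Itgax, Itgal, Itgb2, Itga4, Itgb1 and Itgb7, the selectin ligand Selplg and the hyaluronan receptor Cd44. They were chosen by name for their known role, with earlier results of these data known, and all 9 were among the 24346 gene symbols in the tables. RNA-seq was performed on myeloid-derived suppressor cells (MDSCs) sorted from Hepa 1-6 tumors, a mouse hepatoma line transplanted into the liver, of female C57BL/6J mice of 6 to 8 weeks with the WT genotype. The sorted subsets were, M-MDSCs (monocytic, CD11b+ with high Ly-6C and no Ly-6G) and PMN-MDSCs (polymorphonuclear, CD11b+ with intermediate Ly-6C and with Ly-6G), each from mice given vehicle, MS-275 or CXD101, which inhibit the histone deacetylases HDAC1 to HDAC3. Each of the 6 groups held 2 libraries. Per the methods of the study, which describe the M-MDSC experiment, the inhibitors were injected intraperitoneally at 5 mg/kg daily for 10 days from day 10 after inoculation, and tumors were taken on day 21. The PMN-MDSC libraries are described by the labels and the series design only, and the number of mice behind each library is not given in the sources used here, so that p-values measure the spread between these libraries.

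An integrin is a pair of 1 alpha and 1 beta chain, and a chain reaches the cell surface only with its partner. Itgb2 encodes the beta chain of leukocyte integrins and pairs with Itgam (Mac-1, the CD11b of the sort gate), Itgal (LFA-1) and Itgax (CD11c), whereas Itga4 pairs with Itgb1 (VLA-4) or with Itgb7 (the gut homing receptor). Selectins slow leukocytes on the vessel wall by binding glycosylated PSGL-1, the product of Selplg, and integrins then arrest them on ICAM and VCAM ligands, while CD44 binds hyaluronan in the matrix. Both subsets were gated on the CD11b protein, so cells without it were not sampled, and the part of the gate in the Itgam RNA level was not tested.

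The genes of 3 of the Itgb2 partners lie on mouse chromosome 7 (GRCm38, GENCODE annotation, all on the plus strand). Itgal lies at chr7:127296260-127335138, Itgam at chr7:128062640-128118491 and Itgax at chr7:128129547-128150657, so that 11.06 kb separate the end of Itgam from the start of Itgax. Itgb2 is at chr10:77530252-77565708 on the plus strand, Itga4 at chr2:79255426-79333123 on the plus strand, Itgb1 at chr8:128685654-128733200 on the plus strand, Itgb7 at chr15:102215995-102231944 on the minus strand, Selplg at chr5:113818536-113832644 on the minus strand and Cd44 at chr2:102811141-102901665 on the minus strand. The annotation places Gm49368 over Itgam on the same strand, where reads of the overlap cannot be told apart. Cerkl lies over Itga4 and the snRNA gene Gm23731 over Cd44, both on the other strand, and the strand setting of the counting is not given in the sources used here. The Itgam, Itga4 and Cd44 values are uncertain to that extent.

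Promoter sequence from RefSeq (GRCm38.p6) was at hand for 6 of the 9 genes: Itgam, Itgax, Itga4, Itgb1, Itgb7 and Cd44. The 250 bases before the start are shown for the neighbors Itgam and Itgax, of which Itgax alone was called with an inhibitor, and for Itgb7 and Itgb1, the beta chains called with an inhibitor in 1 of the subsets. Capitals mark GAGGAA or its reverse complement TTCCTC, letters of the purine-rich core that the myeloid factor PU.1 is known to bind. The windows are chr7:128062390-128062639 (plus strand) for Itgam, chr7:128129300-128129549 (plus strand) for Itgax, chr15:102231936-102232185 (minus strand) for Itgb7 and chr8:128685404-128685653 (plus strand) for Itgb1.
Itgam: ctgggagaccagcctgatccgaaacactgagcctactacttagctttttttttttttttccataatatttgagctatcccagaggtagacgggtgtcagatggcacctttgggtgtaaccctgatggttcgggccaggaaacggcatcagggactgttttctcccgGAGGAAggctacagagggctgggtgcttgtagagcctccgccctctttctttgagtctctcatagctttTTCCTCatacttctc
Itgax: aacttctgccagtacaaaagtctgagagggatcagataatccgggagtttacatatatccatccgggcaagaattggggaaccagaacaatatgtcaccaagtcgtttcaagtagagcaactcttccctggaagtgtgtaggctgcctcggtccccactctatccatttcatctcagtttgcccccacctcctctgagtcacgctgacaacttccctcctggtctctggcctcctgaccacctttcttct
Itgb7: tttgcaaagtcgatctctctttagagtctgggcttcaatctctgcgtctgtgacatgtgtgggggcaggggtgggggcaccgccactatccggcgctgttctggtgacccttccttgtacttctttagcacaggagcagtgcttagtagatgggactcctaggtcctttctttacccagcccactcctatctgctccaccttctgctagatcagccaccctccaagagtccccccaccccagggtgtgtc
Itgb1: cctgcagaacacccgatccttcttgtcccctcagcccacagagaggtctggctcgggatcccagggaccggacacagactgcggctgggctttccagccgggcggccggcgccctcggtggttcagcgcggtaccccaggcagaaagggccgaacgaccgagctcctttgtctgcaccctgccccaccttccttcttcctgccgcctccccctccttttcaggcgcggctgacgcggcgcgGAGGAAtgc
These letters were present in the windows of 3 of the 6 genes, Itgam, Itgb1 and Cd44, against 23.25% of 32851 RefSeq windows of the same length. In Itgam they stood once as printed and once as the reverse complement, the first base being 84 and 15 bases before the start. The windows of Itgax, Itga4 and Itgb7 held no match, which says only that these letters were not in these windows. GGGCGG and TGTGGT, each with its reverse complement, were searched as well. GGGCGG was present in 3 of the 6 windows against 32.74% of all windows, and TGTGGT in 1 against 14.05%.

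Values are FPKM as deposited, a fragment count corrected for transcript length and library size, and thus comparable between genes within a library. Differences were tested with limma on log2(FPKM + 1) over all genes with at least 1 FPKM in at least 2 libraries of the fit, with Benjamini-Hochberg adjustment. A gene was called when its adjusted p was under 0.05 and its fold change above 1.5, and "rose" and "fell" are used for called genes. All 9 genes passed this filter in both subsets, and the lowest value of any was 5.62 FPKM, for Itgax, or about 159 reads by an estimate from the steps of low values. Estimated depth was 8.34 to 10.6 M reads in M-MDSC libraries and 6.998 to 8.13 M in PMN-MDSC libraries. Transcripts of S100a8 and S100a9 together held 1.78% to 4.28% of all FPKM in M-MDSC libraries, 10.2% and 13.7% in the vehicle PMN-MDSC libraries and 27.3% to 30.9% in the treated PMN-MDSC libraries, so values were also rescaled without them. Monocyte marker Ccr2 was at 124 to 147 FPKM in M-MDSCs and at 27.5 to 40.7 FPKM in PMN-MDSCs. With vehicle, F13a1 was also higher in M-MDSCs, at 19.9 to 29.1 FPKM against 3.24 to 4.77 FPKM in PMN-MDSCs. Csf1r went the other way, at 123 FPKM in both M-MDSC libraries and 145 to 160 FPKM in PMN-MDSCs. So did Cx3cr1 and Ms4a4c, both at or under 1.4 FPKM with vehicle. Fcgr1 was at 24.6 to 25.1 FPKM in M-MDSCs and 23.15 to 24.1 FPKM in PMN-MDSCs with vehicle. The 7 monocyte markers summed to 1612 to 1685 FPKM in vehicle and 2315 to 2700 FPKM in treated M-MDSCs, and to 664 to 742 and 1546 to 1796 FPKM in PMN-MDSCs. Most of the monocyte sum was Ly6c2, at 1306 to 1360 and 2041 to 2447 FPKM in M-MDSCs and at 455 to 511 and 1418 to 1677 FPKM in PMN-MDSCs, whereas Ccr2, Csf1r and Fcgr1 were lower in all treated than in all vehicle libraries of each subset. The neutrophil markers, mostly S100a8 and S100a9, summed to 10770 to 11530 and 21110 to 25610 FPKM in M-MDSCs and to 68410 to 94020 and 236400 to 270800 FPKM in PMN-MDSCs. Both marker sums were thus higher in all treated than in all vehicle libraries of a subset, while 3 of the monocyte markers went the other way, and their part in the results below was not tested. T, NK and B cell markers summed to 0.302 to 4.17 FPKM and hepatocyte and liver tumor markers to 1.04 to 3.39 FPKM in every library, with Ncr1, Ttr and Serpina1a at 0 in all 12. Ly6g was on the neutrophil marker list, but its symbol was not among the 24346 gene symbols, so its level could not be read.

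Itgb2 and Itgam were the most abundant of the 9 genes in every library, followed by Selplg and Cd44. Itgam was at 281 and 285 FPKM in vehicle M-MDSCs, at 257 FPKM in both MS-275 libraries and at 258 and 261 FPKM in CXD101 libraries. In PMN-MDSCs it was at 825 and 895 FPKM with vehicle, at 861 and 862 FPKM with MS-275 and at 862 and 881 FPKM with CXD101. All PMN-MDSC libraries thus stood above all M-MDSC libraries, and within PMN-MDSCs the 3 treatments overlapped. Itgb2 was at 349 and 366 FPKM in vehicle M-MDSCs and at 858 and 875 FPKM in vehicle PMN-MDSCs. Itgax was the lowest of the 9 in all M-MDSC libraries and in the treated PMN-MDSC libraries, but in vehicle PMN-MDSCs it stood above both Itgb7 and Itga4.

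**Figure D1:**
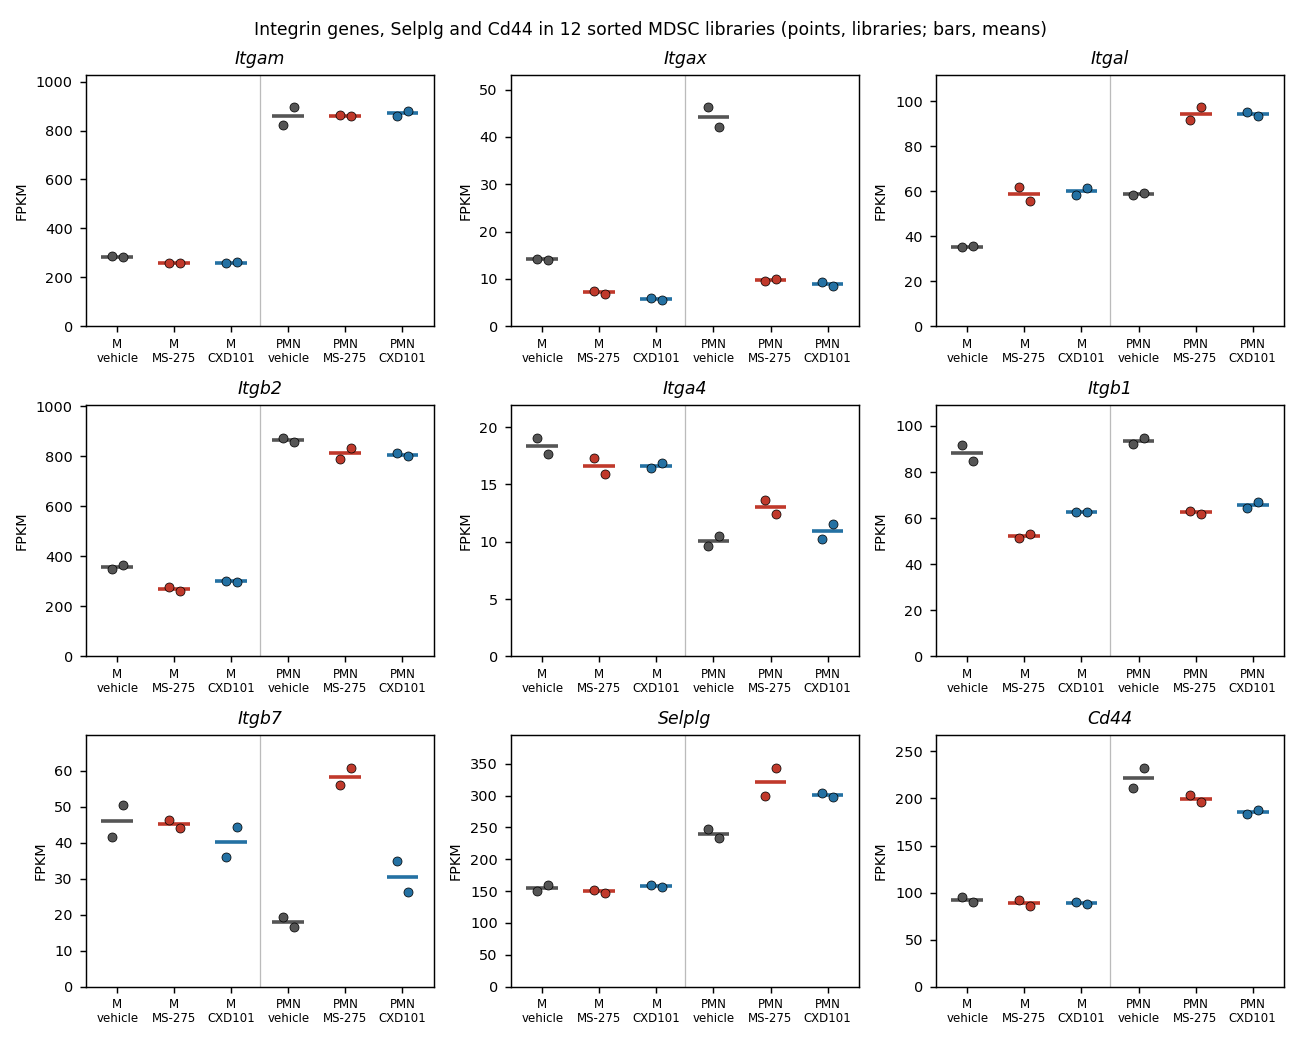
FPKM of the 9 adhesion genes in 12 libraries, each panel with its own y axis from 0. Points are libraries (2 per group), bars are group means, and vehicle is gray, MS-275 red and CXD101 blue. Itgax is highest in the vehicle PMN-MDSC libraries (42.0 and 46.2 FPKM), Itgal is higher in treated than in vehicle libraries of each subset, and Itgb7 is highest in MS-275 PMN-MDSC libraries.

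The first comparison was that of the subsets without inhibitor. In vehicle-treated mice, 8 of the 9 genes differed between PMN-MDSCs and M-MDSCs, against 34.0% of the 11662 genes tested. The 6 genes that were higher in PMN-MDSCs were the 4 beta 2 family chains among the 9, Selplg and Cd44 (background 17.2% higher). The 2 that were lower were Itga4 and Itgb7 (background 16.8% lower). Since fewer cells of a type and less RNA per cell cannot be told apart in sorted bulk samples, these are differences in RNA level per library.

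Itgam, the alpha chain of Mac-1, was 3.03-fold higher in PMN-MDSCs (log2 difference 1.60 ± 0.05 SE, adjusted p = 3.26e-09). Itgax, known mostly as a dendritic cell marker, averaged 44.1 ± 2.98 FPKM (SD, n = 2) in PMN-MDSCs and 14.2 ± 0.135 in M-MDSCs, a 2.97-fold difference (adjusted p = 8.82e-08). Their shared beta chain Itgb2 was 2.42-fold higher in PMN-MDSCs, and Itgal, the LFA-1 alpha chain, was 1.65-fold higher, at 58.4 and 59.3 FPKM against 35.2 and 35.4 FPKM. The beta 2 chains therefore differed in the same direction but by unequal amounts.

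Cd44 was at 211 and 233 FPKM in PMN-MDSCs and at 89.4 and 95.5 FPKM in M-MDSCs, a 2.38-fold difference with an adjusted p of 7.45e-08. Selplg, the P-selectin ligand, was at 233 and 247 FPKM in PMN-MDSCs and at 151 and 160 FPKM in M-MDSCs (log2 difference 0.63 ± 0.07 SE, adjusted p = 1.50e-05). The Selplg difference was close to the fold limit and passed below it under quantile normalization (0.53) and without the first M-MDSC or the first PMN-MDSC vehicle library (0.58 each).

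The chains of the alpha 4 integrins went the other way. Itgb7 was at 41.6 and 50.5 FPKM in M-MDSCs and at 16.7 and 19.4 FPKM in PMN-MDSCs, 2.46-fold lower in the latter (log2 difference -1.30 ± 0.14 SE, adjusted p = 1.76e-05). Itga4, which pairs with either Itgb1 or Itgb7, was at 17.7 and 19.1 FPKM in M-MDSCs and at 9.62 and 10.5 FPKM in PMN-MDSCs, 1.75-fold lower (adjusted p = 1.85e-05). Itgb1, the beta chain of many matrix receptors, was not called: it was at 84.7 and 91.8 FPKM in M-MDSCs and 92.0 and 94.97 FPKM in PMN-MDSCs, with a log2 difference of 0.08 (adjusted p = 0.232).

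The question of the inhibitor comparisons was how HDAC1-3 inhibition changed gene expression in each subset. In M-MDSCs, MS-275 raised Itgal and lowered Itgax and Itgb1, so that 3 of the 9 genes were called against 17.5% of the 11078 genes tested (10.1% higher and 7.32% lower). CXD101 raised Itgal and lowered Itgax, 2 of 9 against 8.13%. In PMN-MDSCs, both inhibitors raised Itgal and Itgb7 and lowered Itgax, 3 of 9 in each comparison, against 28.7% with MS-275 (14.6% higher and 14.2% lower) and 21.4% with CXD101 (11.9% higher and 9.54% lower). In PMN-MDSCs, where many genes were called, the share of the 9 genes was near that of all genes. The inhibitors were compared with the same vehicle libraries, so the 2 comparisons within a subset are not independent.

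**Figure D2:**
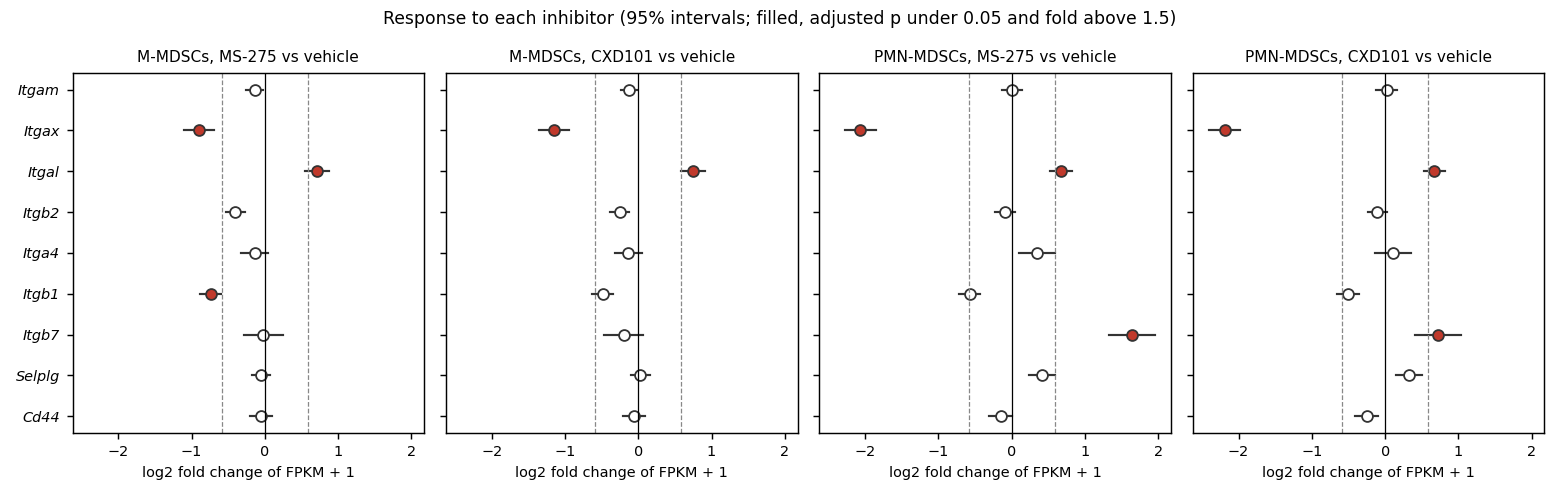
Log2 fold change of FPKM + 1 for each of the 9 genes in the 4 comparisons with vehicle, with 95% intervals from limma. Filled points were called (adjusted p under 0.05 and fold above 1.5) and dashed lines mark the fold limit; Itgax lies left of it and Itgal right of it in all 4 panels, and Itgb7 is filled in the PMN-MDSC panels.

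Itgax had the largest fall of the 9 genes in all 4 comparisons. In M-MDSCs it was at 14.1 and 14.3 FPKM with vehicle, at 6.87 and 7.42 FPKM with MS-275 and at 5.62 and 6.02 FPKM with CXD101. The 3 treatments did not overlap in M-MDSCs, and the fall was 1.86-fold with MS-275 (log2 -0.90 ± 0.09 SE, adjusted p = 1.25e-04) and 2.22-fold with CXD101 (-1.15 ± 0.09, adjusted p = 1.33e-04). In PMN-MDSCs it was at 42.0 and 46.2 FPKM with vehicle, at 9.54 and 10.02 FPKM with MS-275 and at 8.52 and 9.25 FPKM with CXD101. Here the fall was 4.18-fold with MS-275 (-2.06 ± 0.09, adjusted p = 4.44e-06) and 4.56-fold with CXD101 (-2.19 ± 0.09, adjusted p = 5.53e-06). Both changes were larger in PMN-MDSCs than in M-MDSCs when the difference itself was tested, by -1.17 for MS-275 (95% interval -1.43 to -0.90, adjusted p = 8.98e-05) and by -1.04 for CXD101 (-1.30 to -0.77, adjusted p = 2.76e-04).

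The dendritic cell marker sum and some macrophage markers were also lower with both inhibitors, and their part in the fall of Itgax was not tested. The 8 dendritic cell markers summed to 32.7 to 45.6 FPKM in vehicle M-MDSCs, 2.52 to 3.45 with MS-275 and 7.07 to 7.09 with CXD101. In PMN-MDSCs the sums were 123 to 145 FPKM with vehicle, 16.3 to 16.9 with MS-275 and 15.9 to 20.6 with CXD101. The sum was thus lower in every treated library than in every vehicle library of its subset, as Itgax was. The order of the inhibitors in M-MDSCs was not the same. There the sum was lower with MS-275 than with CXD101, and Itgax was lower with CXD101. Most of each vehicle sum was the chemokine Ccl17, at 28.3 to 41.8 FPKM in vehicle M-MDSCs and 111 to 128 FPKM in vehicle PMN-MDSCs. Ccr7 and Cd209a were also lower in all treated than in all vehicle libraries of each subset. In PMN-MDSCs Ccr7 was at 8.28 to 9.77 FPKM with vehicle and 2.14 to 3.05 FPKM in treated libraries. Flt3, Zbtb46, Xcr1, Clec9a and Siglech stayed at or under 1.18 FPKM in every library. Of these, Clec9a went the other way with CXD101 in PMN-MDSCs, at 0.717 to 1.18 FPKM against 0.345 to 0.615 FPKM with vehicle. Among 6 macrophage markers the complement gene C1qb was at 14.0 to 15.5 FPKM in vehicle M-MDSCs and 18.8 to 23.7 FPKM in vehicle PMN-MDSCs. It was at 0.288 to 0.760 FPKM in all MS-275 libraries and at 1.79 to 4.63 FPKM in all CXD101 libraries. C1qb was thus lower in all treated libraries, most with MS-275, and C1qa, C1qc and Mrc1 were lower in all treated libraries as well. Apoe went the other way, at 3.46 to 3.78 FPKM in vehicle and 5.12 to 6.08 FPKM in treated M-MDSCs, and at 13.8 to 16.4 FPKM with vehicle, 45.3 to 51.1 with MS-275 and 18.6 to 25.5 with CXD101 in PMN-MDSCs. Adgre1 was also higher in treated M-MDSCs, at 38.9 to 41.5 FPKM with vehicle, 53.9 to 58.4 with MS-275 and 42.4 to 47.6 with CXD101. The macrophage sum was 145 to 147 FPKM in vehicle M-MDSCs, 75.2 to 81.3 with MS-275 and 119 to 137 with CXD101, and in PMN-MDSCs 182 to 191, 128 to 143 and 111 to 123 FPKM.

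Itgal, the alpha chain of LFA-1, which binds ICAM-1, was the member that rose in all 4 comparisons. In M-MDSCs it was at 35.2 and 35.4 FPKM with vehicle, at 55.6 and 61.7 FPKM with MS-275 and at 58.5 and 61.5 FPKM with CXD101, and in PMN-MDSCs at 58.4 and 59.3, 91.5 and 97.3, and 93.5 and 95.3 FPKM. The treated libraries overlapped between inhibitors and stood above vehicle in each subset. The rise was 1.64-fold with MS-275 and 1.68-fold with CXD101 in M-MDSCs (log2 0.71 and 0.75, each ± 0.07 SE, adjusted p = 1.15e-04 and 3.03e-04). It was 1.6-fold with MS-275 (0.67 ± 0.06 SE, adjusted p = 1.05e-04) and with CXD101 (0.67 ± 0.06, adjusted p = 1.73e-04) in PMN-MDSCs. The test of the difference between subsets gave -0.04 for MS-275 (95% interval -0.24 to 0.16, adjusted p = 0.771) and -0.07 for CXD101 (adjusted p = 0.592). T, NK and B cells are known to express Itgal. Of their markers Cd3d was at 0.199 to 0.717 FPKM in vehicle and 1.82 to 2.32 FPKM in treated PMN-MDSCs, and Cd3e was at 0.212 FPKM or less in every library. The part of these cells in the Itgal result was not tested.

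Itgam and Itgb2 stayed under the fold limit with both inhibitors in both subsets. In M-MDSCs Itgb2 was at 262 and 278 FPKM with MS-275 and at 298 and 301 FPKM with CXD101, all under the vehicle libraries. The log2 difference from vehicle was -0.40 with MS-275 (adjusted p = 6.38e-04) and -0.25 with CXD101 (adjusted p = 0.0135), under the fold limit. In PMN-MDSCs Itgb2 was at 789 and 834 FPKM with MS-275 and at 799 and 812 FPKM with CXD101, a log2 difference of -0.10 for each (adjusted p = 0.198 and 0.174). Itgam differed from vehicle by -0.14 and -0.13 in M-MDSCs (adjusted p = 0.0461 and 0.105) and by 0.00 and 0.02 in PMN-MDSCs (adjusted p = 0.960 and 0.809). Of the adjacent genes on chromosome 7, Itgax thus fell beyond the fold limit in every comparison while Itgam did not reach it in any.

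Because the 3 alpha chains share Itgb2, their levels were also set against it within each library, which removes the scaling between libraries. Itgal was 9.69% to 10.1% of Itgb2 in vehicle M-MDSCs, 21.2% to 22.2% with MS-275 and 19.4% to 20.7% with CXD101. In PMN-MDSCs it was 6.67% to 6.91%, 11.6% to 11.7% and 11.7%. The Itgal share of Itgb2 was thus higher in all treated libraries of each subset, where Itgb2 itself was lower than in the vehicle libraries. Itgax was 3.85% to 4.08% of Itgb2 in vehicle M-MDSCs, 2.62% to 2.67% with MS-275 and 1.89% to 1.999% with CXD101. In PMN-MDSCs it was 4.90% to 5.29% with vehicle, 1.202% to 1.21% with MS-275 and 1.07% to 1.14% with CXD101. The Itgax share was thus lower in all treated libraries. The ratio of Itgal to Itgax was 2.49 in vehicle M-MDSCs, 8.20 with MS-275 and 10.3 with CXD101, and in PMN-MDSCs 1.34, 9.65 and 10.6. Itgam made up 78.8% to 89.8% of the summed FPKM of the 3 alpha chains in the 12 libraries, so it remained the main RNA of these 3 throughout.

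**Figure D3:**
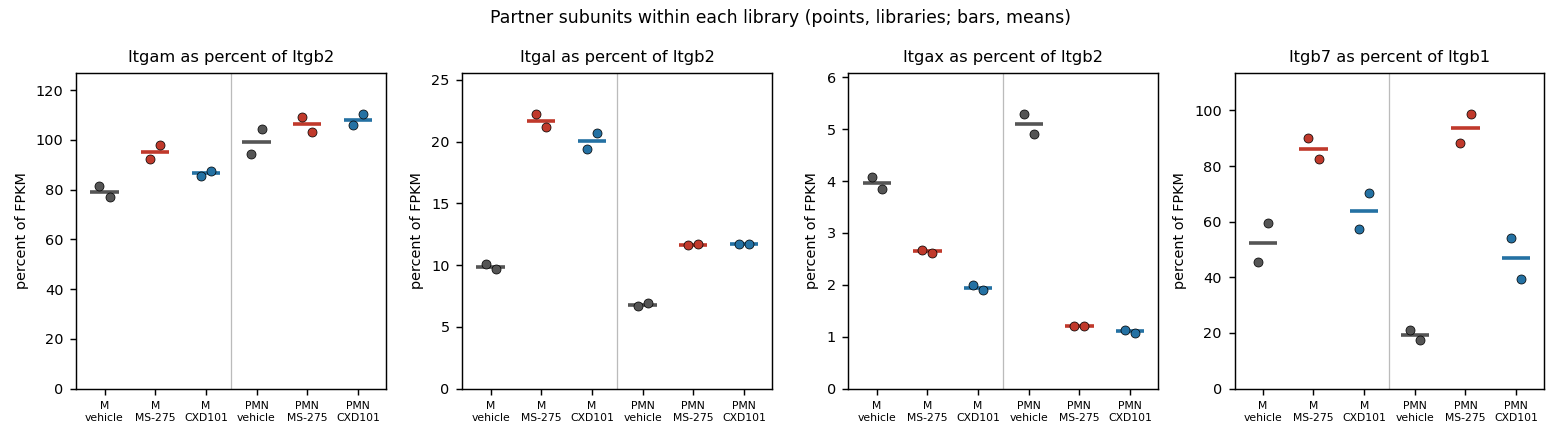
FPKM of 1 chain as percent of another within each library (points, 2 per group; bars, means), each y axis from 0. Relative to Itgb2, Itgal is higher and Itgax lower in all treated libraries of a subset than in its vehicle libraries, and Itgb7 as percent of Itgb1 is highest with MS-275 in both subsets.

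Itgb7, the beta chain of the gut homing integrin, responded in PMN-MDSCs. It was at 16.7 and 19.4 FPKM with vehicle, at 55.9 and 60.8 FPKM with MS-275 and at 26.4 and 34.8 FPKM with CXD101, with no overlap between treatments. The rise was 3.12-fold with MS-275 (log2 1.64 ± 0.14 SE, adjusted p = 5.96e-05) and 1.65-fold with CXD101 (0.72 ± 0.14, adjusted p = 0.00392). Without the first CXD101 PMN-MDSC library, the CXD101 difference was 0.53 and under the fold limit (adjusted p = 0.0208).

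In M-MDSCs the Itgb7 libraries of the 3 treatments overlapped, at 41.6 and 50.5 FPKM with vehicle, 44.1 and 46.3 FPKM with MS-275 and 35.9 and 44.2 FPKM with CXD101. The log2 differences from vehicle were -0.02 (adjusted p = 0.899) and -0.20 (adjusted p = 0.257). The response differed between the subsets by 1.66 for MS-275 (95% interval 1.21 to 2.11, adjusted p = 2.53e-04) and by 0.92 for CXD101 (0.47 to 1.37, adjusted p = 0.00884). Itgb7 is also known in eosinophils, and the sum of 8 eosinophil markers was 341 to 377 FPKM in vehicle PMN-MDSCs, 383 to 421 with MS-275 and 464 to 491 with CXD101, mostly from Ear6 and Ear2. The single markers differed in direction in PMN-MDSCs. The granule genes Epx and Prg2 were lower in the treated libraries, at 2.19 to 2.48 against 4.27 to 7.004 FPKM for Epx. Ccr3 and Siglecf were highest with MS-275, Ccr3 at 0.264 to 0.366 FPKM with vehicle, 1.02 to 1.49 with MS-275 and 0.494 to 0.961 with CXD101, and Siglecf at 21.1 to 27.0, 29.6 to 30.6 and 23.7 to 25.9 FPKM. The part of eosinophils in the Itgb7 result was not tested. In M-MDSCs the eosinophil sum was 160 to 197, 389 to 418 and 377 to 408 FPKM in the same order of treatments.

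Itgb1 fell 1.67-fold with MS-275 in M-MDSCs, from 84.7 and 91.8 FPKM to 51.5 and 53.3 FPKM (log2 -0.74 ± 0.06 SE, adjusted p = 5.52e-05). It was at 62.6 and 62.8 FPKM with CXD101, a log2 difference of -0.49 that passed the adjusted p (0.00131) but not the fold limit. In PMN-MDSCs it was at 92.0 and 94.97 FPKM with vehicle, at 61.7 and 63.2 FPKM with MS-275 and at 64.2 and 67.0 FPKM with CXD101. These log2 differences, -0.57 (adjusted p = 2.19e-04) and -0.50 (adjusted p = 5.94e-04), were also under the fold limit, and the first passed it when FPKM were rescaled without S100a8 and S100a9 (-0.62), without the first vehicle PMN-MDSC library (-0.60) or without the first MS-275 PMN-MDSC library (-0.59). All treated libraries stood below all vehicle libraries in both subsets. The difference between subsets was 0.17 for MS-275 (adjusted p = 0.153) and -0.02 for CXD101.

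Itga4, the alpha chain of VLA-4, was not called in any comparison with vehicle. In M-MDSCs it was at 17.7 and 19.1 FPKM with vehicle and at 15.9 to 17.3 FPKM in the treated libraries. In PMN-MDSCs it was at 9.62 and 10.5 FPKM with vehicle, 12.4 and 13.6 FPKM with MS-275 and 10.2 and 11.6 FPKM with CXD101. The MS-275 libraries were above vehicle (log2 0.34, adjusted p = 0.0272), whereas the CXD101 libraries overlapped with vehicle (0.10, adjusted p = 0.450). As a share of Itgb1 within a library, Itga4 was 10.8% on average in vehicle PMN-MDSCs, 20.8% with MS-275 and 16.6% with CXD101, and Itgb7 as a share of Itgb1 was 19.4%, 93.5% and 46.8%. These shares also carry the lower Itgb1 of the treated PMN-MDSC libraries, at means of 62.5 and 65.6 FPKM against 93.5 FPKM with vehicle. In M-MDSCs the Itgb7 share was 52.5% with vehicle, 86.3% with MS-275 and 63.9% with CXD101, where Itgb7 itself did not pass the test and Itgb1 was lower.

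Selplg and Cd44, the rolling ligand and the hyaluronan receptor, were not called with either inhibitor. In M-MDSCs, Selplg was at 147 to 160 FPKM in all 6 libraries and Cd44 at 85.3 to 95.5 FPKM, with log2 differences from vehicle between -0.06 and 0.03. In PMN-MDSCs, Selplg was at 233 and 247 FPKM with vehicle, 300 and 344 FPKM with MS-275 and 298 and 305 FPKM with CXD101. Both groups were above vehicle, by 0.42 (adjusted p = 0.00261) and 0.33 (adjusted p = 0.0103) on the log2 scale, under the fold limit. The Selplg response to each inhibitor differed between subsets at the adjusted p but below the fold limit (0.47, adjusted p = 0.00432, and 0.30, adjusted p = 0.0427). Cd44 was at 196 and 203 FPKM with MS-275 and at 184 and 188 FPKM with CXD101 in PMN-MDSCs, both below the vehicle libraries, with log2 differences of -0.15 (adjusted p = 0.0914) and -0.25 (adjusted p = 0.0176).

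**Figure D4:**
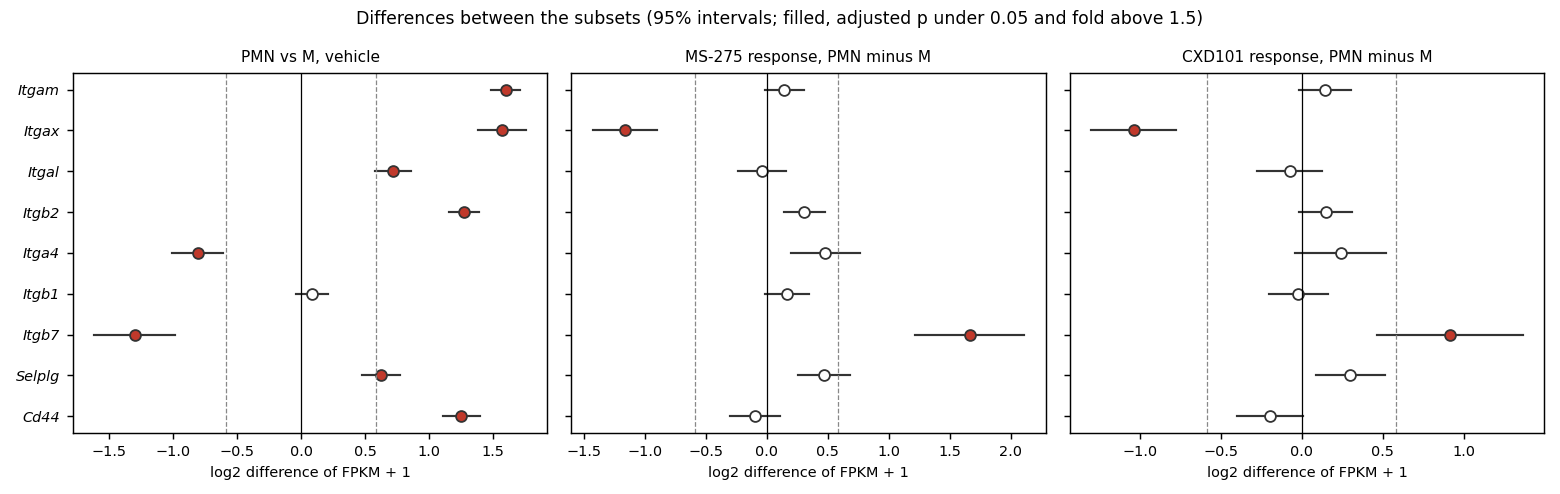
Log2 difference of FPKM + 1 between PMN-MDSCs and M-MDSCs in vehicle (left), and the difference in response to MS-275 (middle) and CXD101 (right), PMN-MDSCs minus M-MDSCs, with 95% intervals from limma. Filled points passed both limits; only Itgax and Itgb7 are filled in the middle and right panels, on opposite sides of 0.

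Over the 9 genes, 2 differed between subsets in their response to MS-275, against 18.1% of genes tested, and 2 in their response to CXD101, against 13.9%. These were Itgax and Itgb7 in both. Itgb2 (0.31, adjusted p = 0.0103) and Itga4 (0.48, adjusted p = 0.0162) also passed the adjusted p for MS-275, under the fold limit. Of all called differences in MS-275 response, 47.7% were higher in PMN-MDSCs, but 33.1% after rescaling without S100a8 and S100a9.

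The inhibitors were given at the same dose and schedule and were compared directly over 9 genes in each subset, with p-values adjusted over all genes tested. In M-MDSCs limma called 0 of 9 members, against 4.40% of genes, and 3 of 9 had an unadjusted p under 0.05. Itgb1 was lower with MS-275 than with CXD101 (log2 difference -0.25, 95% interval -0.40 to -0.11, adjusted p = 0.0332), under the fold limit. Itgax was higher with MS-275 by 0.25 (0.05 to 0.46, adjusted p = 0.0985), and this interval ended below the fold limit. In PMN-MDSCs, 1 of 9 was called, against 0.805% of genes: Itgb7 was 1.89-fold higher with MS-275 than with CXD101 (log2 0.92, 95% interval 0.61 to 1.24, adjusted p = 0.0275). It was no longer called when the filter was dropped (adjusted p = 0.108), without the intensity trend (0.0896), and without the first (0.124) or second (0.139) MS-275 library or the second CXD101 library (0.142). The difference itself stayed between 0.73 and 1.12 when any library was left out. The other 8 members did not pass the adjusted p in PMN-MDSCs, Itga4 having the largest difference (0.24, adjusted p = 0.342).

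Other genes of the adhesion pathways were described from 6 lists, whose counts stand beside the shares of all tested genes. With MS-275 10.1% of all tested genes were called higher and 7.32% lower in M-MDSCs, and 14.6% and 14.2% in PMN-MDSCs. With CXD101 569 were higher and 332 lower of 11078 in M-MDSCs, 8.13% in both directions, and 11.9% and 9.54% in PMN-MDSCs. Over the 20 other integrin subunits, 7 passed the filter in M-MDSCs and 9 in PMN-MDSCs. In M-MDSCs, 2 rose with MS-275, Itga6, a laminin receptor chain, from a mean of 3.72 to 15.4 FPKM (log2 1.80) and Itgb5 from 18.2 to 32.3 FPKM (0.80). With CXD101, 1 rose, Itga6 to 8.84 FPKM (1.06). In PMN-MDSCs, 4 rose with each inhibitor, led by Itgb2l, a gene related to Itgb2, which averaged 50.1 FPKM with vehicle, 213 FPKM with MS-275 (log2 2.07, adjusted p = 4.22e-06) and 243 FPKM with CXD101 (2.26, adjusted p = 4.88e-06). Igsf5 overlaps Itgb2l on the other strand, so its value is uncertain to that extent. Itgae, the alpha chain that pairs with Itgb7, fell with MS-275 in PMN-MDSCs from 1.80 to 0.489 FPKM (-0.91). It was the 1 other subunit called lower, and it passed the filter through the vehicle and CXD101 libraries.

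Among 14 selectins and counter-receptors, Pecam1, an endothelial and leukocyte contact molecule, rose in all 4 comparisons. It averaged 9.12 FPKM in vehicle M-MDSCs, 34.4 FPKM with MS-275 (log2 1.81) and 26.9 FPKM with CXD101 (1.46), and in PMN-MDSCs 16.3, 56.8 (1.74) and 51.0 FPKM (1.59). In M-MDSCs 3 of 7 tested genes rose with MS-275, beside 10.1% of all genes, and 2 with CXD101, beside 8.13% called in either direction. In PMN-MDSCs 4 of 8 rose with each, beside 14.6% and 11.9%. Each of these 4 counts includes Vcam1, which was under 1 FPKM with vehicle and passed the filter through the treated libraries. In PMN-MDSCs 1 gene of the list fell with MS-275, the selectin Selp (-0.59), beside 14.2% of all genes. Its difference was as small as -0.50 when 1 library was left out, under the fold limit. F11r, the junctional adhesion molecule A, rose in PMN-MDSCs from 2.12 to 16.3 FPKM with MS-275 (2.49) and to 12.6 FPKM with CXD101 (2.13). In PMN-MDSCs platelet markers summed to 20.5 to 38.6 FPKM with vehicle, 52.1 to 62.7 with MS-275 and 40.9 to 46.1 with CXD101. Their part in these values was not tested. The platelet sum in M-MDSCs was 9.60 to 10.7 FPKM with vehicle, 46.1 to 49.7 with MS-275 and 24.7 to 26.2 with CXD101. The medians over the tested genes were 0.39 and 0.31 in M-MDSCs and 0.82 and 0.71 in PMN-MDSCs, beside medians of all genes between -0.06 and -0.02.

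**Figure D5:**
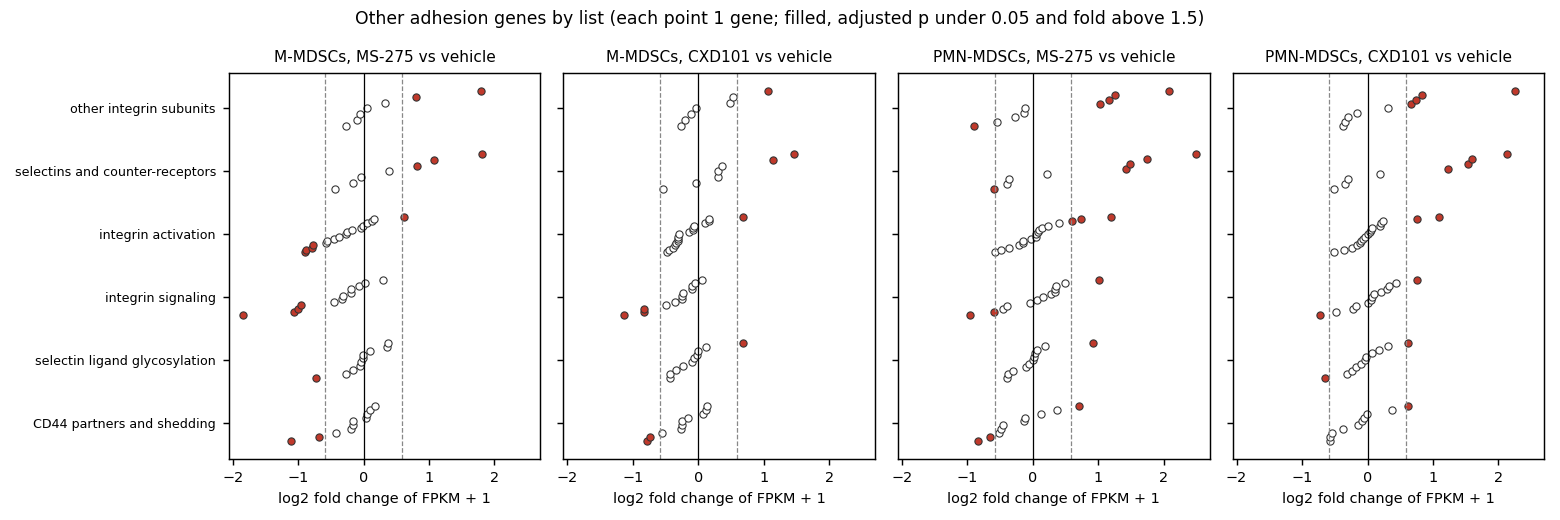
Log2 fold change of FPKM + 1 of the tested genes of 6 adhesion lists in the 4 comparisons with vehicle, 1 point per gene. Filled points were called and dashed lines mark the fold limit; the called integrin signaling genes of M-MDSCs are all left of 0 (4 for MS-275 and 3 for CXD101), and those of PMN-MDSCs lie on both sides.

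The list of genes that act on integrin activation had 17 tested in each subset. It was not split by whether a gene promotes or restrains activation. In MS-275 M-MDSCs 1 was called higher and 4 were called lower, beside 10.1% and 7.32% of all genes. Rasgrp2, which activates the GTPase RAP1 upstream of integrins, rose in all 4 comparisons, by 0.61 and 0.68 in M-MDSCs and by 1.19 and 1.10 in PMN-MDSCs for MS-275 and CXD101. In M-MDSCs it was under the fold limit at 0.56 for each inhibitor without replicate 2 of the group of that inhibitor. Flna, an actin crosslinker, fell in MS-275 M-MDSCs from a mean of 361 to 195 FPKM (-0.88) and Tln2, a talin, from 5.504 to 2.5 FPKM (-0.89). In PMN-MDSCs 3 rose with MS-275 and 2 with CXD101, beside 14.6% and 11.9% of all genes, among them Rassf5, a RAP1 effector (0.73 and 0.75).

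Downstream of integrins, 4 of 12 signaling genes fell in MS-275 M-MDSCs, beside 7.32% of all genes, and 3 with CXD101, beside 8.13% called in either direction. The SRC family kinase Fgr fell from a mean of 35.5 FPKM to 9.15 FPKM with MS-275 (-1.85, adjusted p = 1.71e-06) and to 15.7 FPKM with CXD101 (-1.13). In PMN-MDSCs 1 of 13 rose with each inhibitor, vinculin (Vcl, 1.01 and 0.75), and Parvb fell with both (-0.96 and -0.72). Fgr differed from vehicle by -0.59 with MS-275 in PMN-MDSCs, at the fold limit, and by -0.56 without vehicle replicate 2 or MS-275 replicate 1.

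Enzymes that glycosylate selectin ligands were mostly not called. Of 10 tested in M-MDSCs, St3gal4 fell with MS-275 (-0.73) and Fut7, a fucosyltransferase for selectin ligands, rose with CXD101 from 8.10 to 13.6 FPKM (0.68). That call was lost without vehicle replicate 1 or CXD101 replicate 2 (Fut7 down to 0.51, adjusted p up to 0.0681). Of 11 tested in PMN-MDSCs, Gcnt1 rose with MS-275 (0.92) and CXD101 (0.62) and Tpst1 fell with CXD101 (-0.65). The CXD101 change of Gcnt1 was under the fold limit without vehicle replicate 1 or CXD101 replicate 2 (down to 0.51).

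Of 10 tested CD44 partners and shedding enzymes, Mmp9 fell in M-MDSCs with MS-275 (-1.11) and CXD101 (-0.79). The CXD101 call was lost without vehicle replicate 2, CXD101 replicate 1 or CXD101 replicate 2 (Mmp9 as small as -0.56, adjusted p up to 0.176). Mmp14 was called lower with both inhibitors there too, but passed the filter only through the vehicle libraries, at a mean of 1.30 FPKM, and its calls were lost without replicate 2 of the group of the inhibitor (adjusted p = 0.0911 and 0.109). In PMN-MDSCs Mmp9 fell with MS-275 from a mean of 1061 to 675 FPKM (-0.65, and -0.54 without vehicle replicate 2, under the fold limit), and the sheddase Adam8 rose with MS-275 (0.71) and CXD101 (0.62, and 0.57 without CXD101 replicate 1). Mmp9 was also the list gene that differed most between the subsets in vehicle, at 8.85 FPKM in M-MDSCs and 1061 FPKM in PMN-MDSCs (log2 6.77, adjusted p = 1.81e-09). In that comparison 7 of 13 signaling genes were higher in PMN-MDSCs, Fgr (2.003) and Ptk2b (1.12) leading, beside 17.2% of all genes.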

How the data were processed

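The authors deposited 1 table per library with FPKM values for 24346 gene symbols, so the values are already scaled for transcript length and library size. The submitters' processing notes name TopHat2 2.1.1, Bowtie2 2.2.8, SAMtools 0.1.18, Cuffdiff 2.2.1 and the build mm10, without roles. Libraries were stranded and single-end, from poly(A) RNA. FPKM holds no counts, so a count test was not used and depth was estimated from the steps between values up to 0.5 FPKM of genes with 1 transcript of at least 1000 bases. The median standard error of a log2 difference across genes was 0.0975 within the monocytic and 0.114 within the polymorphonuclear subset.

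limma 3.58.1 (R 4.3.3; lmFit, eBayes with an intensity trend) was run on log2(FPKM + 1), a pseudocount of 1 that understates changes of low genes. Genes with at least 1 FPKM in at least 2 libraries were kept, namely 11078 for M-MDSCs, 11184 for PMN-MDSCs and 11662 over the 12 libraries. Comparisons within a subset used its 6 libraries, and those between subsets used all 12. Benjamini-Hochberg adjustment covered every gene tested in a fit. The procedure was tested on simulated data. The 9 genes, the 6 pathway lists (97 genes) and the 8 marker lists were chosen with earlier results of these data known. Named were the 9 genes, up to 2 called genes per direction, list and comparison by size of change, and the gene most alike each of the 9. Some genes that this rule selected are not reported here. Alternatives were a pseudocount of 0.1, no filter, 3 other scalings, a replicate block, no trend, fewer libraries and leaving out each library. Promoters came from RefSeq and loci from GENCODE. Python 3.11.15, pandas 2.3.3 and matplotlib 3.10.9 were used for the other steps.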

Additional observations from a re-analysis of the deposited data

Results flagged for a closer look

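The response to an inhibitor differed between PMN-MDSCs and M-MDSCs, by a test of the difference itself, for Itgax and Itgb7 and for 15 other named genes of the lists. Values are log2 differences in response, PMN-MDSCs minus M-MDSCs, from limma with Benjamini-Hochberg adjustment, with an adjusted p under 0.05 and a size above the fold limit. All were measured against the same vehicle libraries within a subset.

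For MS-275 the difference was -1.17 for Itgax, 1.66 for Itgb7, 2.13 for Itgb2l, 0.92 for Itgb3, -0.63 for Itga6, 1.68 for F11r and 1.03 for Spn. For Itgax and Itgb7 it was the size of the response that differed, a larger fall of the former in PMN-MDSCs and a rise of the latter there with no call in M-MDSCs. It was 0.77 for Rassf5, 0.82 for Tln1, 1.25 for Fgr, 1.96 for Vcl, -0.89 for Parvb, 0.87 for Adam8 and -0.59 for Nf2. Vcl, which links integrins to actin, was called lower in M-MDSCs and higher in PMN-MDSCs.

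For CXD101 the difference was -1.04 for Itgax, 0.92 for Itgb7, 1.73 for Itgb2l, 0.71 for Itgb3, 1.83 for F11r and 1.18 for Spn. Of these, F11r and Itgb2l had the largest differences among the other named genes. It was 0.59 for Rassf5, 1.25 for Vcl, 0.89 for Zyx, 1.05 for Gcnt1, -0.59 for Tpst1 and 1.16 for Adam8.

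Leaving out 1 library ended some of these calls. For MS-275, Nf2 was lost in 4 of 12 fits (without M-MDSC vehicle replicate 2 or MS-275 replicate 1, or PMN-MDSC vehicle replicate 2 or MS-275 replicate 2, as small as -0.43, adjusted p up to 0.0647), and Itga6 in 1, without PMN-MDSC MS-275 replicate 1 (-0.58). For CXD101, Tpst1 was lost in 4 (without M-MDSC vehicle replicate 2 or CXD101 replicate 1, or PMN-MDSC vehicle replicate 1 or CXD101 replicate 1, as small as -0.52, adjusted p up to 0.0602). Rassf5 was under the fold limit in 4 (without M-MDSC vehicle replicate 2 or CXD101 replicate 2, or PMN-MDSC vehicle replicate 1 or CXD101 replicate 2, down to 0.55). Itgb3 was lost in 2 for CXD101 (without M-MDSC vehicle replicate 1 or PMN-MDSC CXD101 replicate 2, down to 0.56, adjusted p up to 0.0611).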

How the results depend on the processing

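The alternatives kept the direction and the call of the 9 genes in the comparisons with vehicle and between subsets, apart from those named here and beside the results. The labels do not say whether libraries with the same replicate number share mice. The deviations of same-numbered libraries correlated with r of -0.126 to 0.179 over pairs of groups. With 2 libraries per group, this cannot show whether mice were shared. Apart from the replicate block, the tests treated libraries as independent. With the replicate block, the genes called of 9 were 3 and 2 in M-MDSCs for MS-275 and CXD101, 3 and 3 in PMN-MDSCs, and 8 between subsets in vehicle, and the block changed no call of a member.

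Comparing MS-275 with CXD101 in PMN-MDSCs, the members called went from 1 to 0 without the filter or without the trend, and all genes called from 90 to 4 and 35, respectively. Leaving out 1 library gave 0 to 1 members and 10 to 111 genes there, and 308 to 474 genes in M-MDSCs (487 with all libraries). The cause was not tested, beyond fewer libraries in the fit.

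Uncalled members near 0 changed sign on the log2 scale. For MS-275 against vehicle in M-MDSCs, Itgb7 was 0.0179 under median-of-ratios scaling, 0.115 under quantile normalization and 0.0495 without S100a8 and S100a9. Selplg was 0.0842 and 0.018, and Cd44 0.0943 and 0.0133, under the last 2 settings. For MS-275 against CXD101 in M-MDSCs, Itgam was 0.0142, 0.0632 and 0.0352 and Itga4 0.0272, 0.0478 and 0.0471 under the 3 settings in that order, and Itgal 0.0533 and 0.0157 under the last 2. In PMN-MDSCs without S100a8 and S100a9, Itgam was -0.0462 for MS-275 and -0.0035 for CXD101 against vehicle. Itgb2 was 0.0153 for CXD101 against vehicle under quantile normalization. For MS-275 against CXD101 it was -0.0614 under quantile normalization and -0.0171 without S100a8 and S100a9.

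Leaving out 1 library moved uncalled members across 0 as well. Itgb7 ranged from -0.158 to 0.1169 for MS-275 against vehicle and Selplg from -0.0165 to 0.0679 for CXD101 against vehicle in M-MDSCs. For MS-275 against CXD101 in M-MDSCs, Itgal ranged from -0.1085 to 0.0397, Itga4 from -0.0606 to 0.0586 and Cd44 from -0.056 to 0.0579. In PMN-MDSCs Itgam ranged from -0.0548 to 0.0629 for MS-275 and from -0.0384 to 0.0792 for CXD101 against vehicle. For MS-275 against CXD101 there, Itgam ranged from -0.0328 to 0.0001, Itgal from -0.0442 to 0.0433, Itgb2 from -0.0301 to 0.0487 and Selplg from -0.0071 to 0.1894. The difference in response between subsets ranged from -0.1141 to 0.034 for Itgal with MS-275 and from -0.0765 to 0.0378 for Itgb1 with CXD101.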

Other observations

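For each of the 9 genes, the gene whose log2 values followed it most closely over the 12 libraries was found among 11661 others, as a description over 12 libraries that share 2 subsets and 3 treatments. Itgam was most like Trib1 (Pearson r = 0.998) and Itgb2 most like Rasgrp4 (0.998). Selplg was most like Rnf114 (0.996) and Cd44 most like Riok3 (0.996), genes that also stood higher in PMN-MDSCs. Itgax was most like Lgmn (0.9753), a lysosomal protease, and Itgal most like Sept1 (0.981). Itga4 was most like Mki67 (0.984), a gene of proliferating cells, Itgb1 most like Stam2 (0.984) and Itgb7 most like Cox7a2l (0.960).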
